A study of Mus musculus with 18 samples.

Results

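Pericytes and smooth muscle cells form the outer, mural layer of brain vessels, and 6 genes that mark them are described here in mouse cortex: Pdgfrb, Rgs5 and Vtn for pericytes, and Acta2, Tagln and Myh11 for arterial smooth muscle. The genes were chosen by symbol, and all 6 were found among the 13784 genes of each of the authors' 3 deposited tables. Bulk RNA was measured in 18 mice aged 4 to 6 months, in 4 groups. Controls given saline (4 mice) and controls given lipopolysaccharide (LPS, a bacterial outer membrane component that sets off innate immunity; 5 mice) were set beside conditional knockout (cKO) mice, which lack the chromatin remodeller Chd8 in astrocytes, given saline (4 mice) or LPS (5 mice). LPS was injected into the abdominal cavity at 5 mg/kg and cortex was taken 72 hours later. The labels used here name neither the Cre driver nor the sex of the mice.

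Pericytes sit on capillaries within the basement membrane. They are drawn to growing vessels by platelet-derived growth factor B from endothelial cells, which acts on the receptor encoded by Pdgfrb, and they help to keep the blood-brain barrier closed. Smooth muscle cells wrap arteries and arterioles and set their width through a contractile apparatus of smooth muscle actin (Acta2), smooth muscle myosin heavy chain (Myh11) and actin-binding proteins such as transgelin (Tagln). Many contractile genes are bound by serum response factor at a DNA sequence called the CArG box.

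The promoter table of RefSeq for build GRCm38.p6 held 3 of the 6 genes, Rgs5, Vtn and Acta2. The 250 bases before each start were searched for the CArG box on both strands; the motif reads as the same class of sequence on either strand, so 1 search covers both. A match with 1 G or C among its inner A and T bases was counted separately. Of 32851 mouse promoters in the table, 1.47% held the exact motif and 8.59% held either form. Acta2 held 2 matches of the second kind, and Rgs5 and Vtn held none. Among promoters of the contractile gene list used below, 3 of 15 held either form (those of Acta2, Filip1l and Myl9), against 1 of 17 for the pericyte list (Tbx18). Capitals mark the matches in the Acta2 stretches, at chr19:34255438-34255467 and chr19:34255388-34255417 on the minus strand. They begin 84 and 34 bases before the RefSeq start, and lie within the untranslated first exon of an Acta2 transcript annotated in GENCODE vM21. They are shown with Myl9, a regulatory light chain gene whose stretch holds first an exact match and then 1 with a G inside, at chr2:156775288-156775389 on the plus strand. The 2 pericyte promoters are shown as stretches without a match, for Rgs5 at chr1:169655351-169655500 and for Vtn at chr11:78498941-78499090, both on the plus strand. A match is a description of the letters and not a measured binding site, and these coordinates are of GRCm38, not of the build used for the deposited tables.
Acta2 first match: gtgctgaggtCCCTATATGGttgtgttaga
Acta2 second match: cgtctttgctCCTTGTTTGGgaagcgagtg
Myl9: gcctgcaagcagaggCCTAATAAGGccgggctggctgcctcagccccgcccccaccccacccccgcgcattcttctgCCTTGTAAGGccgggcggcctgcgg
Rgs5: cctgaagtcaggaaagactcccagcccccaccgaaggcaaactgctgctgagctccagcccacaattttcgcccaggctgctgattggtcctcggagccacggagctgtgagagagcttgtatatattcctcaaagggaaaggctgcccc
Vtn: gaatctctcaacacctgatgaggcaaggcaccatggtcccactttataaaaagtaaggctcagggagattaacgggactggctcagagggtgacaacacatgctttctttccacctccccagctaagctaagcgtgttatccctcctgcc

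The authors' deposited tables hold comparisons and no values per mouse, so no spread between mice is given and library depth is unknown. Group levels below are estimates in CPM (read counts scaled to a common library total), back-calculated from group sizes, mean log2 CPM and fold changes in the authors' deposited tables. A fold change is a log2 difference with its standard error (SE), and a gene is called at an adjusted p (FDR) below 0.05. Chd8 in whole cortex differed by 0.02 ± 0.05 (SE) between cKO and control mice after LPS in the authors' deposited table (FDR = 0.901), and astrocytes are 1 of many cell types in that tissue. The groups differed in sex-linked transcripts. The X-inactivation transcript Xist stood at 7.47 log2 CPM in control saline, 7.33 in control LPS, 4.35 in cKO saline and 5.91 in cKO LPS, and the Y-linked Ddx3y at -7.19, 3.68, 5.87 and 5.71. Sex is not in the labels, and any difference in the mix of sexes cannot be told apart from treatment or genotype in the values that follow. In bulk tissue, fewer mural cells and less RNA per mural cell cannot be told apart either.

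Markers of both mural cell types were present. Of 22 pericyte genes listed, 19 were measured, including the channel subunits Kcnj8 and Abcc9, the proteoglycan gene Cspg4 and Higd1b; Foxs1, Ndufa4l2 and Pla1a have no row in the tables. Of 24 contractile and smooth muscle genes, 15 were measured, and Cnn1, Lmod1, Des and Myocd are among the 9 without a row. Per kilobase of the longest GENCODE vM21 transcript, the estimated level in control saline mice was 36.8 CPM for Vtn and 21.9 for Rgs5. Acta2 and Pdgfrb both stood at 4.30 CPM per kilobase, Tagln at 2.47 and Myh11 at 1.35. By these estimates Vtn and Rgs5 led the order, and Acta2 and Pdgfrb were alike. Without values per mouse, no part of this order could be tested.

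**Figure D1:**
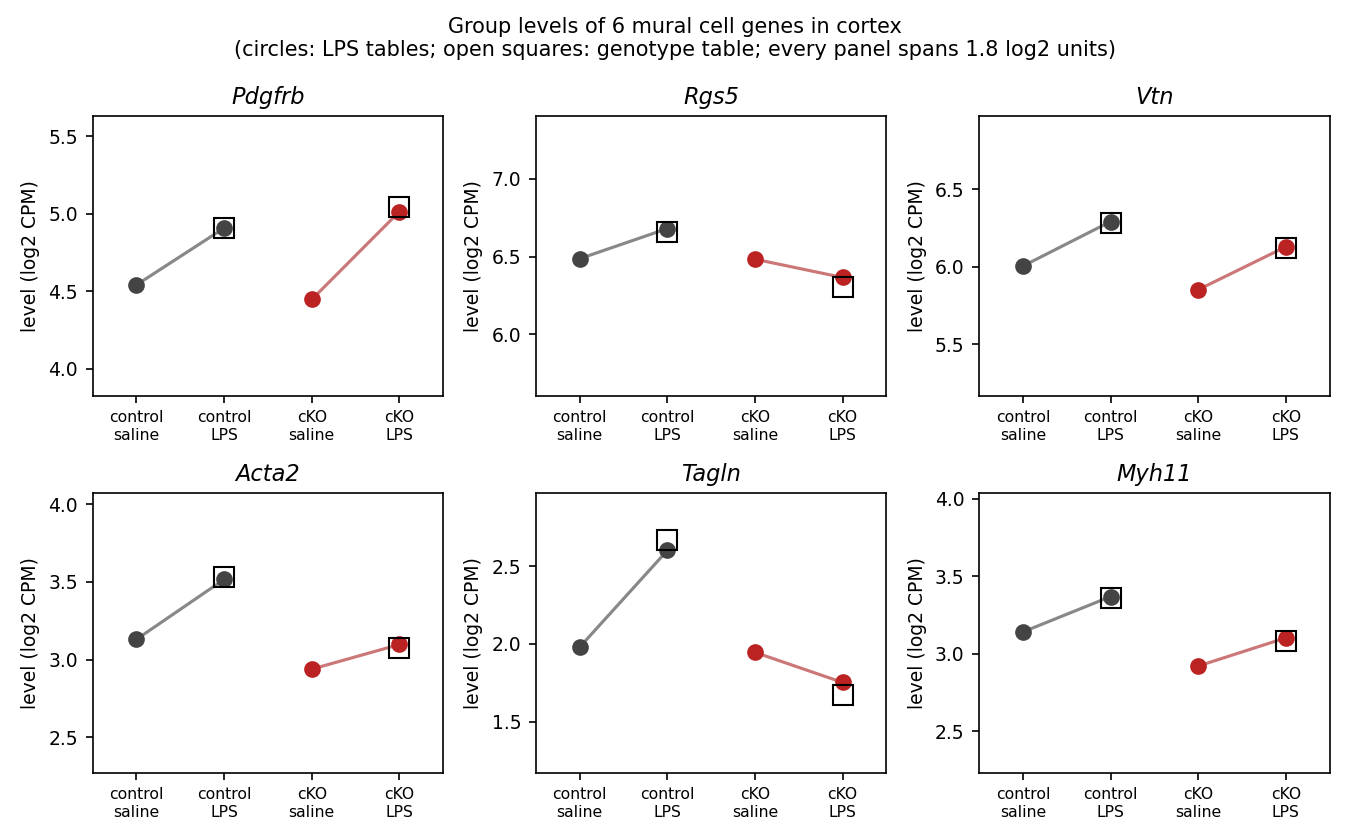
Estimated group levels (log2 CPM, vertical axes, each spanning 1.8 log2 units) of the 6 genes in the 4 groups; circles are from the LPS comparisons and open squares from the comparison of genotypes. Pdgfrb was higher after LPS in both genotypes; the Tagln levels were 1.98 and 2.60 in controls and 1.95 and 1.75 in cKO mice, and neither Tagln response, nor their difference, passed the test. No error bars are drawn because no values per mouse were used.

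After LPS, Pdgfrb rose in both genotypes and was the single gene of the 6 to pass the test in either. In controls all 6 genes had a fold change above 0 with a median of 0.33, and 1 was called higher. In the authors' deposited table for controls, 9.76% of all genes were called (6.46% higher and 3.31% lower) and 50.5% lay below 0. Without adjustment 3 of the 6 (Pdgfrb, Vtn and Tagln) had p below 0.05, against 28.9% of all genes. The called genes there were 890 higher and 456 lower. With a trend on GC content and length removed together with the mean over all genes, they were 581 and 900. With the same trend removed and the median of all genes kept, they were 683 and 386. In cKO mice 4 of the 6 lay above 0 with a median of 0.17, and 1 was called higher. In the authors' deposited table for cKO mice, 19.5% of all genes were called (10.9% higher and 8.52% lower) and 50.2% lay below 0. These were 1506 higher and 1175 lower genes. They became 920 and 1456 with that trend and the mean removed, and 1124 and 914 with the median kept. Without adjustment 2 of the 6 (Pdgfrb and Vtn) had p below 0.05, against 35.8% of all genes.

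Pdgfrb, the receptor for platelet-derived growth factor B, stood at an estimated 23.3 CPM in control saline, 30.02 in control LPS, 21.8 in cKO saline and 32.3 in cKO LPS. Both LPS groups were above both saline groups. In the authors' deposited tables it rose by 0.37 ± 0.08 in controls (1.29-fold, 95% interval 0.18 to 0.55, edgeR FDR = 0.0279) and by 0.57 ± 0.11 in cKO mice (1.48-fold, 0.32 to 0.81, edgeR FDR = 0.0117). Removing a trend on GC content and transcript length ended the call in controls (0.22, adjusted p = 0.1001), and neither estimate reached a cut-off of 1.5-fold. Of 7 ligand and receptor genes listed for its pathway 6 were measured, and the 5 besides Pdgfrb had no call in either genotype. In the authors' deposited tables the ligand gene Pdgfb had fold changes of 0.10 ± 0.11 in controls and 0.08 ± 0.17 in cKO mice. The other ligands and the alpha receptor lay between -0.18 and 0.29 in these tables, for Pdgfra and Pdgfd in cKO mice.

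Rgs5, a regulator of G protein signalling that is a standard pericyte marker, stood at 89.7 CPM in control saline, 103 in control LPS, 89.5 in cKO saline and 82.4 in cKO LPS. The saline groups were level, and the LPS groups lay on opposite sides of them. Neither response passed the test in the authors' deposited tables, at 0.19 ± 0.09 in controls (FDR = 0.207) and -0.12 ± 0.11 in cKO mice (FDR = 0.459). Among 6 measured genes of its R4 family, the authors' deposited tables called Rgs4 lower in both genotypes, at -0.27 ± 0.07 and -0.33 ± 0.09, and Rgs3 higher in cKO mice at 0.32 ± 0.09. Rgs3 was not called in controls, where it went from 21.6 to 23.2 CPM. Called genes made up 16.7% of the 6 in controls and 33.3% in cKO mice, beside 9.76% and 19.5% of all genes. No gene of the family had a called difference between the responses of the genotypes.

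Vtn, which encodes the matrix glycoprotein vitronectin that brain pericytes release, stood at 64.2 CPM in control saline, 78.3 in control LPS, 57.8 in cKO saline and 70.0 in cKO LPS. The responses were of like size, at 0.29 ± 0.11 in controls (FDR = 0.111) and 0.28 ± 0.09 in cKO mice (FDR = 0.0520) in the authors' deposited tables, and neither passed. Of 6 measured receptor and partner genes of vitronectin, the integrin subunits Itgb5 (0.47 ± 0.07) and Itgb1 (0.30 ± 0.06) rose in controls, and Itgb8 fell by 0.24 ± 0.07 in cKO mice, per the authors' deposited tables. None of these was called in the other genotype. Itgb5 went from 39.6 to 44.4 CPM and Itgb1 from 55.4 to 62.9 CPM in cKO mice, and Itgb8 from 86.1 to 84.9 CPM in controls. Called genes made up 33.3% of the list in controls and 16.7% in cKO mice, beside 9.76% and 19.5% of all genes. No gene of this list had a called difference between the responses of the genotypes.

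Acta2 stood at 8.76 CPM in control saline, 11.4 in control LPS, 7.66 in cKO saline and 8.56 in cKO LPS. Its fold changes in the authors' deposited tables were 0.39 ± 0.18 in controls (95% interval -0.02 to 0.79, FDR = 0.194) and 0.16 ± 0.22 in cKO mice (-0.33 to 0.65, FDR = 0.634). Neither passed, and intervals of this width leave room for a rise as large as that of Pdgfrb. Of 4 measured actin genes none was called in the authors' deposited tables: the skeletal actin Acta1 had -0.06 and -0.21, and the cytoplasmic actins Actb and Actg1 had 0.03 to 0.16 over both genotypes.

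Myh11 stood at 8.82 CPM in control saline, 10.3 in control LPS, 7.58 in cKO saline and 8.59 in cKO LPS. The authors' deposited tables give 0.23 ± 0.20 in controls (FDR = 0.487) and 0.18 ± 0.19 in cKO mice (FDR = 0.528), neither past the test. Among the 4 myosin II heavy chains, the non-muscle gene Myh9 rose in controls (0.46 ± 0.11, FDR = 0.0296 in the authors' deposited table), with 0.20 ± 0.07 in cKO mice. Myh10 had 0.18 and 0.07, and Myh14 had 0.21 and 0.38, without a call in the authors' deposited tables. None of the 4 myosin genes had a called difference between the responses of the genotypes.

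Tagln, an actin-binding protein of contractile smooth muscle, stood at 3.95 CPM in control saline, 6.07 in control LPS, 3.85 in cKO saline and 3.37 in cKO LPS. The control LPS group stood above the other 3, which lay close together. The authors' deposited tables give 0.62 ± 0.23 in controls (95% interval 0.11 to 1.13, FDR = 0.107) and -0.19 ± 0.19 in cKO mice (-0.61 to 0.22, FDR = 0.483), and neither passed. At this error a fold change of 0.82 was needed for a call in controls. Its paralogue Tagln2, found in many cell types, rose in both genotypes by 1.26 ± 0.14 and 1.04 ± 0.15 in the authors' deposited tables, and the neuronal Tagln3 had -0.13 and -0.12 with no call. Tagln overlaps Pcsk7 on the opposite strand; Pcsk7 had -0.05 ± 0.07, 0.07 ± 0.07 and, between genotypes, 0.12 ± 0.09 in the authors' deposited tables, with no call.

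**Figure D2:**
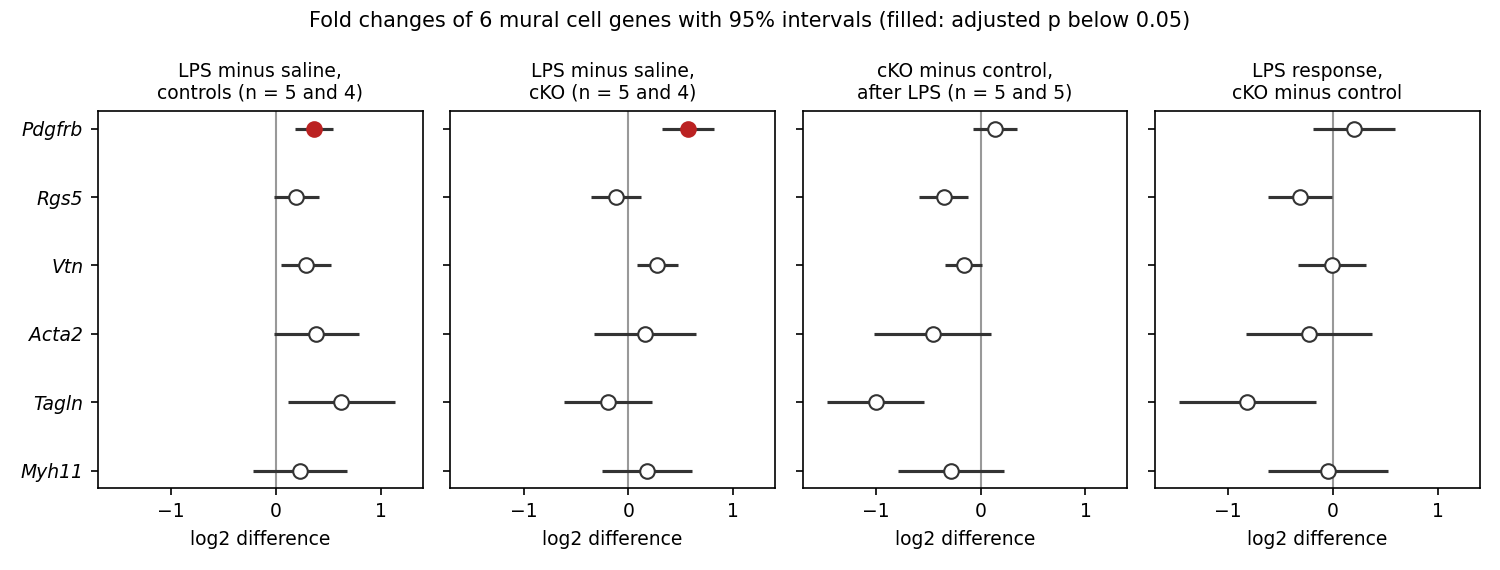
Log2 differences of the 6 genes with 95% intervals for LPS against saline in controls and in cKO mice, cKO against control after LPS, and the difference of the 2 LPS responses; filled points have an adjusted p below 0.05. Pdgfrb is filled in both LPS panels (0.37 and 0.57), and no gene is filled in the panels that compare genotypes, where Tagln lies furthest from 0 (-1.001 and -0.82).

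The wider mural lists, which each include 3 of the 6 genes, held genes with larger LPS responses than these. Of 19 measured pericyte genes, the authors' deposited tables called 3 higher and 0 lower in controls (median 0.29) and 5 higher and 0 lower in cKO mice (median 0.34). These are 15.8% and 26.3% of the list, beside 9.76% and 19.5% of all genes called. The aminopeptidase gene Anpep rose by 1.22 ± 0.20 in controls and 1.10 ± 0.32 in cKO mice, and Cd248, which encodes endosialin, by 0.92 ± 0.19 and 1.00 ± 0.24, in the authors' deposited tables. Heyl, a NOTCH target, rose in cKO mice by 0.84 ± 0.21 and had 0.43 ± 0.19 in controls (edgeR FDR = 0.166) in the authors' deposited tables. Atp13a5 rose in cKO mice by 0.34 ± 0.09 and had 0.13 ± 0.14 in controls (edgeR FDR = 0.584) there. No gene of the pericyte or contractile list had a called difference between the responses of the genotypes. Of 15 contractile genes, 4 were called higher in controls (median 0.39) and 3 in cKO mice (median 0.21), with 0 lower, in the authors' deposited tables, which are 26.7% and 20% of the list. Those called in both were the smoothelin gene Smtn (0.96 ± 0.22 and 1.08 ± 0.17), the caldesmon gene Cald1 (0.79 ± 0.12 in each) and Synpo2 (0.89 ± 0.17 and 0.78 ± 0.16). Myl9 rose in controls by 0.52 ± 0.13 (FDR = 0.0358) and had 0.31 ± 0.10 in cKO mice (FDR = 0.0545) in the authors' deposited tables.

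Genes of 2 further lists, around serum response factor and around NOTCH3 and pericyte recruitment, were also counted. Bulk values do not show which cells their transcripts came from. In controls 42.9% of the first list and 26.7% of the second were called, beside 9.76% of all genes. In cKO mice the shares were 42.9% and 33.3%, beside 19.5% of all genes. Of 7 measured genes around serum response factor, the authors' deposited tables called Elk4 (0.60), Vcl (0.37) and Mrtfb (0.24) higher in controls, and Mrtfa (0.49), Elk4 (0.47) and Vcl (0.38) higher in cKO mice; Srf itself had 0.04 and -0.09. Of 15 genes of NOTCH3 and pericyte recruitment signalling, the transforming growth factor receptor genes Eng (1.45 ± 0.21 and 1.32), Tgfbr2 (0.98 ± 0.09 and 0.76) and Acvrl1 (0.33 ± 0.09 and 0.67) rose in both genotypes in the authors' deposited tables. S1pr1 fell by 0.27 ± 0.05 in controls and Hey1 fell by 0.38 ± 0.09 in cKO mice there. Neither was called in the other genotype, where S1pr1 went from 162 to 147 CPM (cKO mice) and Hey1 from 44.9 to 39.8 CPM (controls). No gene of either list had a called difference between the responses of the genotypes. Notch3, the receptor of mural cells, had 0.44 ± 0.13 in controls without passing (FDR = 0.0624 in the authors' deposited table).

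**Figure D3:**
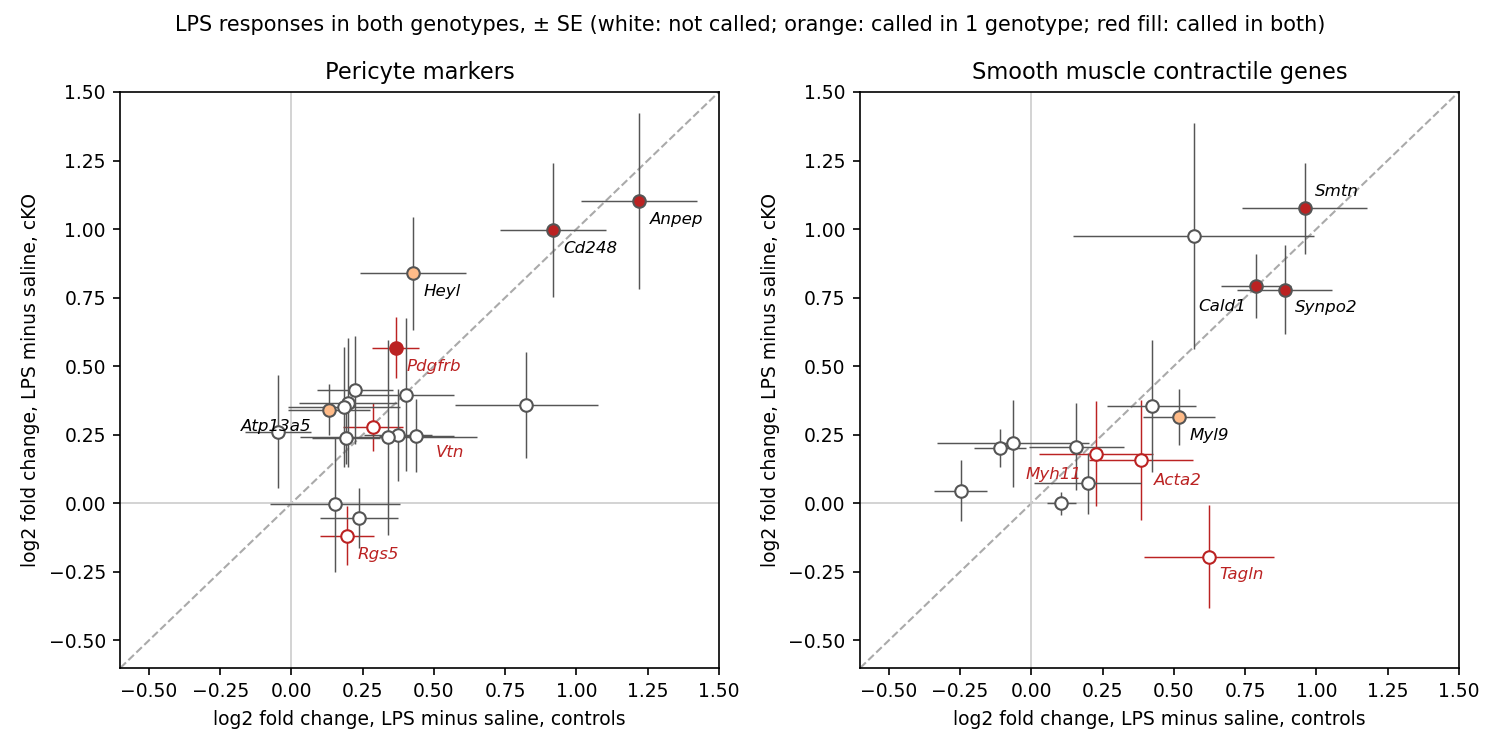
LPS response in cKO mice (vertical) against that in controls (horizontal), as log2 fold changes ± SE, for 19 pericyte and 15 contractile genes; red fill marks genes called in both genotypes, orange in 1, white in neither, and the dashed line marks equal responses. Anpep, Cd248, Smtn, Cald1 and Synpo2 lie far along the line, and Tagln lies below it at 0.62 and -0.19.

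Markers of other cells were followed in the same LPS comparisons, in which 9.76% of all genes were called in controls and 19.5% in cKO mice. Of 10 endothelial markers the authors' deposited tables called 9 higher in controls and 6 in cKO mice, and the summed endothelial level went from 219 to 332.7 CPM in controls and from 217 to 296 CPM in cKO mice. Of 8 fibroblast markers 5 were called higher in controls and 1 in cKO mice in these tables, with sums of 129 and 163 CPM in controls and 122 and 140 CPM in cKO mice. Pdgfra, also a gene of oligodendrocyte precursors, makes up much of these sums; without it they were 62.3 and 99.5 CPM, and 55.2 and 80.9 CPM. Of 5 microglial markers the authors' deposited tables called 3 higher in controls (summed level 166 and 244 CPM), and 2 higher and 1 lower in cKO mice (166 and 198 CPM). Of 7 astrocyte markers 1 was called higher and 1 lower in controls, and 0 higher and 3 lower in cKO mice. Of 7 cortical neuron markers 1 was called higher in controls and 2 in cKO mice, with 0 lower. The 3 measured choroid plexus markers had no call, with sums of 114 CPM after saline and 11.4 CPM after LPS in controls and 117 and 22.1 CPM in cKO mice. Ttr alone made up 106 and 6.46 CPM of the control sums, and 108 and 15.2 CPM of the cKO sums. Striatal markers summed to 222 and 223 CPM in controls, with no call, and to 252 and 319 CPM in cKO mice, with 2 of 6 called higher. The summed pericyte list went from 290 to 347 CPM and from 274 to 312 CPM. Most of this sum is of genes described above: in control saline Rgs5 made up 89.7 CPM, Vtn 64.2 and Pdgfrb 23.3. Cspg4 made up a further 28.8 CPM, and bulk values do not show which cells its transcripts came from. The part of the other cells and tissues in the mural values was not tested.

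Between genotypes after LPS, none of the 6 genes passed the test in the authors' deposited table (edgeR), in which 0.00725% of all genes were called. Without adjustment, 2 of the 6 (Rgs5 and Tagln) had p below 0.05, against 12.3% of all genes. Of the 6, 5 lay below 0 in cKO mice, with a median of -0.32, where 49.5% of all genes lay below 0. This comparison uses the same LPS mice as the comparisons above, so its values are not separate evidence for them.

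Tagln differed most, at an estimated 2.67 log2 CPM in control LPS and 1.67 in cKO LPS mice from this table. The fold change was -1.001 ± 0.20 (95% interval -1.46 to -0.54, unadjusted p = 0.000937, edgeR FDR = 0.187) in the authors' deposited table, which is 0.4997 of the control level. Among 13784 genes it stood at rank 38 from the lowest fold change and rank 69 from the smallest p. Rgs5 had -0.35 ± 0.10 (-0.59 to -0.12, unadjusted p = 0.00774, edgeR FDR = 0.291) in the authors' deposited table. The other values there were -0.46 ± 0.25 for Acta2 (FDR = 0.478), -0.28 ± 0.22 for Myh11 (FDR = 0.634) and -0.16 ± 0.08 for Vtn (FDR = 0.441). Pdgfrb alone lay above 0, at 0.13 ± 0.09 (-0.08 to 0.34, FDR = 0.584 in the authors' deposited table).

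The wider lists had 0 calls between genotypes in the authors' deposited table. Of 19 pericyte genes 12 lay below 0 (median -0.10, 3 with unadjusted p below 0.05), among them Mcam, an adhesion molecule gene, at -0.54 ± 0.13 (unadjusted p = 0.00255, edgeR FDR = 0.256) in the authors' deposited table. Of 15 contractile genes 11 lay below 0 (median -0.13). Among these 15, unadjusted p was below 0.05 for Tagln, Myl9 and Tpm1, which lay below 0, and for Itga8 and Csrp1, which lay above 0 at 0.38 and 0.28 in the authors' deposited table. All 6 vitronectin receptor and partner genes lay below 0, with a median of -0.20. Markers of other cells also had 0 calls in this comparison. Of these, 10 of 10 endothelial (median -0.24), 7 of 8 fibroblast (-0.31) and 5 of 5 microglial markers (-0.31) lay below 0, and unadjusted p was below 0.05 for 2, 3 and 1 of them. Of 7 astrocyte markers 4 lay above 0 (median 0.34), and of 7 cortical neuron markers 5 lay below 0 (median -0.06). In each of the astrocyte and cortical neuron lists 3 genes had an unadjusted p below 0.05. All 6 striatal markers lay above 0 (median 0.67; summed level 223 CPM in control LPS and 319 CPM in cKO LPS), as did the 3 measured choroid plexus markers (median 0.84; 11.4 and 22.1 CPM). The part of these tissues, and of the dissection, in the mural values was not tested.

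**Figure D4:**
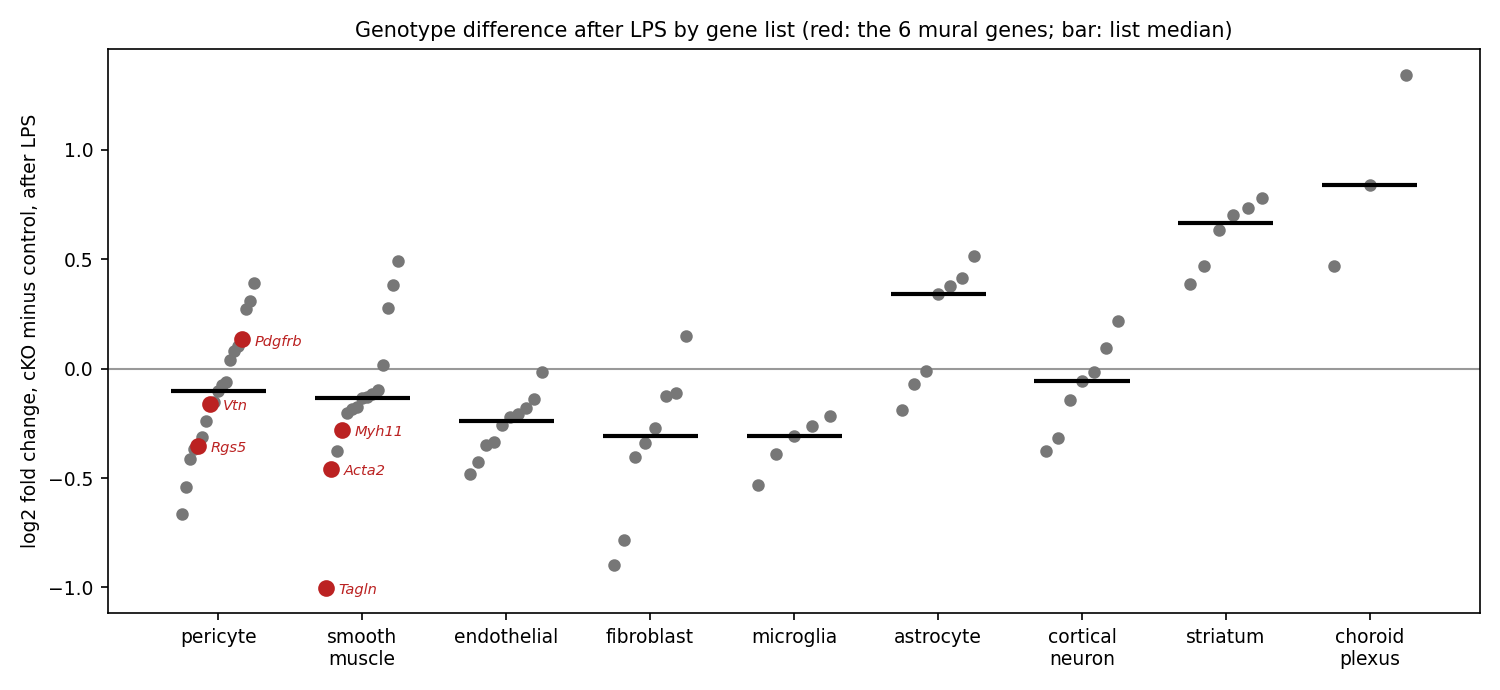
Log2 fold change between cKO and control mice after LPS (vertical axis) for each gene of 9 cell type or tissue lists; red points are the 6 mural genes and bars are list medians. Endothelial and microglial genes all lie below 0 (medians -0.24 and -0.31), striatal genes all lie above 0 (median 0.67), and Tagln is the lowest point at -1.001; no gene shown was called.

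The LPS response itself was compared between genotypes, as the response in cKO mice minus that in controls. None of the 6 differences passed, and 0.00725% of all genes did; at an unadjusted p below 0.05 there were 2 of the 6, against 6.52% of all genes. Of the 6 differences 5 lay below 0, with a median of -0.14, where 50.1% of all genes lay below 0. For Tagln the difference was -0.82 ± 0.33 (95% interval -1.47 to -0.16, unadjusted p = 0.0146, p = 0.657 adjusted by Benjamini-Hochberg from the authors' deposited tables). For Rgs5 it was -0.31 ± 0.16 (-0.62 to -0.01, unadjusted p = 0.0456, adjusted p = 0.761). The other 4 had intervals that span 0, at 0.20 ± 0.20 for Pdgfrb, -0.01 ± 0.17 for Vtn, -0.23 ± 0.31 for Acta2 and -0.05 ± 0.29 for Myh11. That of Vtn, -0.34 to 0.32, bounds how far its responses may differ.

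After saline, no comparison of genotypes was analysed here, and only an untested estimate could be formed from the authors' deposited tables. All 6 genes lay below 0 in cKO mice, from -0.23 for Acta2 and Myh11 to -0.04 for Rgs5, with a median of -0.17, where 47.3% of all genes lay below 0. Tagln had -0.18, Vtn -0.15 and Pdgfrb -0.07. This estimate runs through the comparison of genotypes after LPS. Taken instead from the saline levels given above, which come from the LPS comparisons alone, all 6 again lay below 0 (median -0.12; 48.6% of all genes below 0), but Tagln had -0.03 and Rgs5 -0.0035, so the size for these 2 genes depends on the route. Without the 6 genes, the first estimate lay below 0 for 13 of 16 pericyte genes (median -0.13) and 10 of 12 contractile genes (median -0.07). It also lay below 0 for 8 of 8 fibroblast (-0.11), 8 of 10 endothelial (-0.02), 3 of 5 microglial and 4 of 7 cortical neuron markers. All 7 astrocyte (0.23), all 6 striatal (0.29) and all 3 measured choroid plexus markers lay above 0. The part of these other cells and tissues in the saline estimates was not tested.

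Genes with the pattern most like each of the 6 were found by Euclidean distance over the 3 log2 fold changes, among 12631 named genes. Nearest to Pdgfrb were Gmpr2 (0.0218) and Gng3 (0.0221), to Rgs5 Camkmt (0.00929) and Smad7 (0.0307), and to Vtn Tfe3 (0.0265) and the endothelial gene Egfl7 (0.0342). Nearest to Acta2 were Fbln7 (0.0437) and Slc26a8 (0.0828), and to Myh11 Dnah7b (0.0433) and Vwa1 (0.0749). Within a distance of 0.1 there were 59 genes for Pdgfrb, 70 for Rgs5, 82 for Vtn, 10 for Acta2 and 17 for Myh11. Tagln had 0 genes within that distance, and its nearest was Sh2d4b at 0.152. With 3 values per gene from comparisons that share mice, nearness is a description only.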

How the data were processed

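Bulk cortex RNA was sequenced from ribosome-depleted stranded libraries, per the labels' protocols. The submitters' processing notes name cutadapt 3.5, STAR, RSEM, edgeR 3.30.3 and build GRCm39, without role or order. The authors deposited, per the file headers, these values by gene: mean log2 CPM, log2 fold change, F statistic (a score), p-value and FDR; fold-change direction was read from the agreement of group levels between tables (SD over genes 0.0537 and 0.0503 log2 units, against 0.226 or more with any sign turned). Groups came from the genotype label, since all titles carry the word for saline.

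SEs are the absolute log2 fold change over the root of F. The 95% intervals of the 3 deposited comparisons use the denominator degrees of freedom that F and p imply for each gene. The medians of these over genes were 8.66 to 9.85. The difference of LPS responses used SEs from the normal quantile of p and 95% intervals from the normal distribution, and was adjusted over 13784 genes. Nothing says whether the mice of a group were independent of litter or batch, so p-values measure only the spread between these samples. The 6 genes and the lists were chosen with earlier results of these data known. All 6 genes are named; from each list, up to 4 called genes per comparison with the largest fold changes, all PDGF, actin, myosin II and transgelin genes, and the nearest genes by pattern. Kcnj8, Abcc9, Cspg4, Higd1b, Notch3, Mcam, Tpm1, Itga8, Csrp1, Srf, Pcsk7 and the sex-linked genes were named outside that rule, after their values were seen. Alternatives were a minimum fold change of 1.5, a mean log2 CPM of at least 1, centring on the median, SEs from F, and removal of a GC and length trend (cubic polynomial, 99.6% of genes matched). A version of the last that keeps the median of all genes was added after the first version's results were seen. Python 3.11.15, pandas 2.3.3 and scipy 1.17.1 were used.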

Additional observations from a re-analysis of the deposited data

How the results depend on the processing

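With a minimum fold change of 1.5, the members called went from 1 to 0 in controls and from 1 to 0 in cKO mice (Pdgfrb both times), all genes called from 1346 to 498 in controls (457 higher, 41 lower) and from 2681 to 649 in cKO mice (556 higher, 93 lower), and pericyte markers called in cKO mice from 5 to 3. With the trend on GC content and length removed as planned, which also takes out the mean over all genes, members called in controls went from 1 to 0, Pdgfrb stood at 0.22 (adjusted p = 0.1001), genes called in controls were 581 higher and 900 lower, those in cKO mice 920 higher and 1456 lower, and genes called for the difference of responses went from 1 to 2. In a version chosen after seeing these results, which keeps the median of all genes, members called in controls were again 0 (Pdgfrb 0.27, adjusted p = 0.0709), the splits were 683 and 386 in controls and 1124 and 914 in cKO mice, and the difference had 1 call. In cKO mice Pdgfrb kept its call under both versions (0.44 and 0.47). Both versions remove the same trend and differ only by a constant for each comparison, so the turned splits belong to that constant. The cause of the trend was not tested. No fold change of the 6 genes reversed past a call, and centring and the level minimum ended none of their calls. With the level minimum, pericyte markers called went from 3 to 2 in controls and from 5 to 4 in cKO mice. SEs from F were tried for the difference of responses only, where the 6 genes had 0 calls either way. No paired analysis was possible because the deposited columns carry no values per mouse; leaving out a replicate was not run for the same reason. The depth is unknown, and the wide intervals of Acta2, Tagln and Myh11 limit what could be detected.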
